A study of Mus musculus with 8 samples.

Results

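The genes described here are 37 genes of the G2 phase and of mitosis, followed in RNA sequencing libraries from mouse haematopoietic stem cells (HSCs) that carried or lacked Tie2-Cre on a floxed Nynrin background. They were taken by gene symbol from a deposited table of 55401 genes, and all 37 were found and passed the filter on low counts, among 27573 genes tested. By role they comprise 7 genes of mitotic entry, 7 of the spindle checkpoint and the anaphase-promoting complex, 7 of the kinetochore, 6 of the spindle, 8 of the chromosomal passenger complex and cytokinesis, and 2 of mitotic chromosomes.

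The control group was 4 libraries from Nynrin fl/fl mice without Cre, which the labels call wild type. The Nynrin CKO group was 4 libraries from Nynrin fl/fl Tie2-Cre mice. All mice were C57BL/6, were 8 weeks old and carried the floxed Nynrin alleles, and HSCs were sorted from bone marrow by flow cytometry. Cre was present only in the Nynrin CKO group, so an effect of Cre cannot be told apart from loss of Nynrin. Tie2-Cre is active in endothelial cells as well as in blood cells. Whether each library came from a separate mouse is not in the labels, and the spread behind each p-value may then be technical. Nynrin itself ran from 29.9 to 47.4 CPM (read counts scaled to library size) in controls, and from 8.21 to 12.7 CPM with Tie2-Cre (log2 fold change -1.85, edgeR adjusted p = 0.0345).

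Entry into mitosis is driven by CDK1 bound to B-type cyclins. The kinetochore then joins chromosomes to spindle microtubules, and the spindle checkpoint holds back the anaphase-promoting complex until every chromosome is attached. Most of these genes are transcribed in waves that peak in G2 and mitosis, so in bulk RNA their level is often read as a measure of cycling cells. Adult HSCs are known for being mostly quiescent, while the progenitors next to them in the marrow divide often. In a bulk library, fewer cells of a type and less RNA per cell cannot be told apart.

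Promoters of late cell cycle genes are known for a pair of short elements, the cell cycle genes homology region (CHR, searched as TTTGAA or its reverse complement TTCAAA) and the CCAAT box (searched as CCAAT or its reverse complement ATTGG). In the RefSeq promoter table of build GRCm38.p6, with windows of 250 bases before to 50 bases after each start site, 30 of the 37 genes were matched by symbol. Ccna2, Cdc25c, Spc24, Tpx2, Aurkb, Incenp and Kif20a were not in that table. A CHR letter match lay in 22 of the 30 windows, and in 17.9% of all 32851 windows. A CCAAT match lay in 23 of the 30, and in 37.4% of all windows. Both were present in 19 of the 30, and in 6.95% of all windows. A CHR match shared letters with a CCAAT match in 0 of the member windows and in 47 of all windows. The Kif2c window is 3867 bases from the start of its deposited gene record. A letter match is a description of these windows, not a site of binding.

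Sequences are shown for members that passed the test described below, up to 150 bases before the RefSeq start, cut short where the deposited gene record begins earlier. Capitals mark CHR and CCAAT matches. The windows are on the minus strand of GRCm38.p6, at chr9:70421555-70421704 for Ccnb2, chr4:118437353-118437493 for Cdc20, chr4:134187113-134187235 for Cep85 and chr1:169531465-169531614 for Nuf2.
Ccnb2: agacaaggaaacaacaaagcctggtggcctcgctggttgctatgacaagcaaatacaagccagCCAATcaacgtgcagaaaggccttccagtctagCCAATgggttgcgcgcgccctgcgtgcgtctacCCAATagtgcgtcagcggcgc
Cdc20: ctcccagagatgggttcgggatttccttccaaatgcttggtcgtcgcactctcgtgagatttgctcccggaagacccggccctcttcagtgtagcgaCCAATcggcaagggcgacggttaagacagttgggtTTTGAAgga
Cep85: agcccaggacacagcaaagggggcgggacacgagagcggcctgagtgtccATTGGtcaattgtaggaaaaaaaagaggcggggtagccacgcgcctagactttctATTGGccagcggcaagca
Nuf2: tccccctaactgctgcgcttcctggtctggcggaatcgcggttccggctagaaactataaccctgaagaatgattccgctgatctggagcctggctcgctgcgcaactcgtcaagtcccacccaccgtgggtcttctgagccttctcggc
The Ccnb2 window carries 3 CCAAT matches at regular spacing, and its nearest CHR match lies just after the start. Cdc20 carries the CHR and CCAAT letters together, Cep85 has 2 CCAAT matches in reverse orientation and no CHR match, and Nuf2 has neither.

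Short sites of at most 30 bases show the CHR letters of other members. That of Bub3, at chr7:131560321-131560350 on the plus strand, holds a reversed CHR match and a CCAAT match side by side. The others lie just after the start: Ccnb2 at chr9:70421535-70421560 (minus), Plk1 at chr7:122159455-122159480 (plus), Aurka at chr2:172370523-172370548 (minus) and Cenpa at chr5:30666892-30666917 (plus).
Bub3: ttggcgTTCAAAatcagCCAATgataggcc
Ccnb2: cggcgcggtaTTTGAAtcgcggaccg
Plk1: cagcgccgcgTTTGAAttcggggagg
Aurka: aaggagaaccTTTGAAttgtaacggc
Cenpa: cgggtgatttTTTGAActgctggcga
The Bub3 site lies inside the deposited gene record, which begins further upstream than the RefSeq start.

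Library totals ran from 36942835 to 56437299 counts, and each member had at least 273 counts in every library. Libraries stood apart in ways the labels do not give. Olfactory and vomeronasal receptor genes summed to 891 to 1669.7 CPM in controls 1 to 3 and Nynrin CKO 1 and 2, and to 142 to 225 CPM in control 4 and Nynrin CKO 3 and 4. These are called the sets with more and with few receptor reads. Controls 3 and 4 held 177719 and 224087 counts of Xist, the RNA of the inactive X chromosome, while the remaining libraries held 245 to 471. High Xist was thus found among controls only, so Xist class and group are partly confounded. The Nynrin CKO libraries came in close pairs, compared here by the median absolute log2 difference over genes of at least 10 CPM. It was 0.0986 between 1 and 2 and 0.0835 between 3 and 4, against 0.158 to 0.226 between controls. The pairs themselves lay 0.3 to 0.31 apart, further than any controls from each other. Nynrin CKO 1 and 2 lay nearer to control 4, at 0.221 and 0.204, than to Nynrin CKO 3 and 4. From controls 1 to 3 they lay 0.306 to 0.347 apart. Over the members alone, Nynrin CKO 1 and 2 lay 0.21 to 0.435 from the controls and 0.529 to 0.549 from Nynrin CKO 3 and 4. All 16 HSC markers examined had counts in every library, with Kit the most abundant. So did all erythroid, megakaryocyte, macrophage, endothelial and multipotent and lymphoid-primed progenitor markers examined, so detection alone does not tell these cell types apart.

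As a group, the G2 and mitosis genes lay higher in Nynrin CKO HSCs, with most members short of the threshold. In all, 6 of them, Cep85, Bub3, Ccnb2, Nuf2, Spc24 and Cdc20, passed edgeR's quasi-likelihood test at an adjusted p under 0.05, and 0 passed in the lower direction (also 0 with DESeq2 and limma-voom). The number called higher was 12 with DESeq2, 4 with limma-voom, 1 with RLE factors or total counts, and 0 with the close Nynrin CKO pairs summed, with a term for Xist class or in the 6 libraries with low Xist alone. In the fit as reported, 16.2% of the members were called higher, beside 2.22% of all tested genes called higher and 0.588% called lower. Among the 9855 genes with a mean of at least 10 CPM over the libraries, which every member reaches, 5.82% were called higher. Without Cep85 and Bub3, 4 of the remaining 35 members were called higher (11.4%), with a median log2 fold change of 0.49. At an unadjusted p under 0.05, 23 members were higher and 1, Bub1, was lower. Counts at an unadjusted p, here and below, were not made over all tested genes, so no share stands beside them. The fold change was positive for 34 of 37, with a median log2 fold change of 0.54 and a range of -0.33 to 1.20. The median was -0.09 over all tested genes and 0.19 over genes of at least 10 CPM, of which 67.1% were positive.

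In 16 members all 4 Nynrin CKO libraries lay above all 4 controls, and in 0 members all lay below. Among all tested genes 9.55% lay apart upward and 4.82% downward, and 22.4% lay apart upward among genes of at least 10 CPM. With total counts in place of TMM factors, 28 of 37 were positive and their median was 0.24, while the median of all tested genes moved from -0.09 to -0.34. Over all tested genes, 611 were called higher and 162 lower with TMM, 13 and 22 with RLE factors, 225 and 251 with upper-quartile factors, and 59 and 318 with total counts. The counts were 1329 and 941 with DESeq2, and 542 and 145 with limma-voom. With a term for Xist class they were 4 and 6, and with summed pairs or the low-Xist libraries alone 0 and 0. As a share of all counts, without any factor, the 37 genes held 0.195% to 0.253% in controls and 0.250% to 0.274% in Nynrin CKO libraries, so that these shares overlapped. Without Cep85 and Bub3 the shares were 0.166% to 0.229% in controls and 0.207% to 0.235% in Nynrin CKO libraries. Control 1, at 0.229%, then lay above Nynrin CKO 1, 2 and 4.

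**Figure D1:**
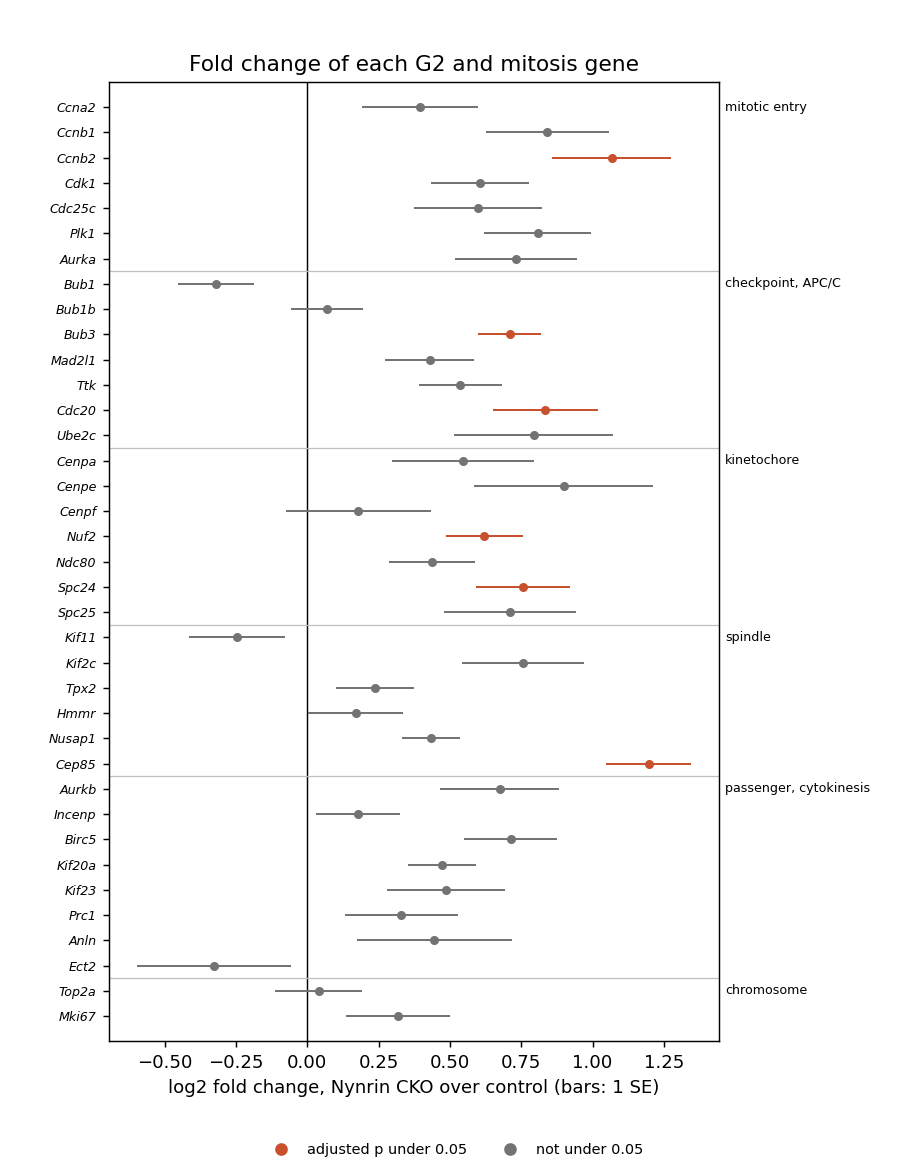
Log2 fold change (Nynrin CKO over control, bars 1 SE of the fit, n = 4 libraries per group) of the 37 genes, ordered by role; colour marks an adjusted p under 0.05 in edgeR's quasi-likelihood test. Of the 37 points, 34 lie right of 0 and 6 passed, while Bub1, Kif11 and Ect2 lie left of 0.

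The number of calls changed whenever 1 library was left out. Without control 4 the test still called 2 members, Cep85 and Bub3. When any other library was left out (controls 1, 2 and 3, Nynrin CKO 1, 2, 3 and 4) it called 0. Over all tested genes those fits called only 1 to 6 higher, against 611 with all 8 libraries and 1129 without control 4. The member median stayed between 0.40 and 0.62 in all 8 fits that left out 1 library. Over all the alternative settings, the adjusted p of Cep85 ranged from 7.3e-08 to 0.43 and that of Bub3 from 5.0e-05 to 0.44. It ranged from 0.00072 to 0.44 for Ccnb2, 0.0069 to 0.44 for Cdc20, 0.0087 to 0.45 for Nuf2 and 0.013 to 0.44 for Spc24. Of 24 alternative settings, the call was lost in 11 for Cep85, 15 for Bub3, 18 for Ccnb2 and 19 for Nuf2. For Spc24 and Cdc20 it was lost in 20 each.

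Genes of mitotic entry lay higher in Nynrin CKO libraries in all 7 cases, with a median log2 fold change of 0.73, and 1 of them, Ccnb2, rose. In 5 of the 7 the groups did not overlap. Ccnb2 encodes cyclin B2, a partner of CDK1, and lies on chromosome 9 from 70407692 to 70421547 on the minus strand (mm10). It stood at 89.5, 59.7, 62.1 and 64.5 CPM in controls 1 to 4 and at 114, 109, 179.6 and 176 CPM in Nynrin CKO 1 to 4. Every Nynrin CKO library was above every control, with the third and the fourth far above the first pair. Its mean went from 68.9 ± 13.8 to 145 ± 38.3 CPM (SD, n = 4 each), a log2 fold change of 1.07 ± 0.21 (SE, edgeR adjusted p = 0.0417; exact permutation p = 0.0286, the smallest that 4 against 4 libraries allow).

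Plk1, the polo-like kinase that promotes mitotic entry and spindle assembly, read 41.8, 29.9, 30.2 and 28.6 CPM in controls against 44.7, 47.5, 69.5 and 66.9 CPM in Nynrin CKO libraries. The groups did not overlap, though control 1 came close to Nynrin CKO 1. Its log2 fold change of 0.81 ± 0.19 had an edgeR adjusted p of 0.0521. A pseudogene record, Plk-ps1, held 4.44% as many counts as Plk1.

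The other cyclin B gene, Ccnb1, had a log2 fold change of 0.84 (edgeR adjusted p = 0.0685), Cdk1 one of 0.61 and the kinase gene Aurka one of 0.73, each without overlap between groups. For Cdc25c, encoding a phosphatase that activates CDK1, the groups overlapped, at 6.26 to 11.0 CPM in controls against 10.8 to 15.6 CPM in Nynrin CKO libraries. The same held for Ccna2, cyclin A2, at 93.5 to 129 and 105 to 176 CPM. A neighbouring record on shared exons, Exosc9, held 53.5% as many counts as Ccna2, and the counts do not say which strand was read.

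Checkpoint and anaphase-promoting complex genes did not move as a block: Bub3 and Cdc20 rose, and Bub1 and Bub1b, their partners in the checkpoint, had log2 fold changes of -0.32 and 0.07. Positive values were found in 6 of the 7, with a median of 0.54 and no overlap between groups in 3. Bub3, encoding the subunit that brings BUB1 and BUBR1 to kinetochores, occupies 131560222 to 131571895 of chromosome 7 (plus strand). It was at 145, 122, 147 and 154 CPM in controls against 248, 216, 224 and 242 CPM in Nynrin CKO libraries. The groups were well separated, and the 4 Nynrin CKO libraries were alike. The mean was 142 ± 14.1 against 232 ± 15.2 CPM (SD, n = 4), or 1.64-fold, with a log2 fold change of 0.71 ± 0.11 (edgeR adjusted p = 0.0345; exact permutation p = 0.0286).

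Cdc20, the activator of the anaphase-promoting complex and the target of the checkpoint, lies on chromosome 4 from 118432901 to 118437352 on the minus strand. Controls gave 97.1, 78.7, 75.5 and 88.0 CPM, and Nynrin CKO libraries gave 117, 118, 186 and 185 CPM. All Nynrin CKO values exceeded the controls, and the third and the fourth were the highest. The means were 84.8 ± 9.73 and 152 ± 39.5 CPM (SD, n = 4), with a log2 fold change of 0.83 ± 0.18 (edgeR adjusted p = 0.0496; exact permutation p = 0.0286). A record overlapping its exons, Elovl1, had 89.2% as many counts and a log2 fold change of 0.50 (edgeR adjusted p = 0.188), so part of the Cdc20 counts could be reads of Elovl1 or the reverse.

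Ttk, the checkpoint kinase MPS1, had a log2 fold change of 0.54 with no overlap between groups (edgeR adjusted p = 0.0787). Ube2c, the ubiquitin-conjugating enzyme of the anaphase-promoting complex, ran from 27.5 to 48.4 CPM in controls and from 38.3 to 82.6 CPM in Nynrin CKO libraries, and Mad2l1, the inhibitor of CDC20, from 66.1 to 77.8 and 77.1 to 114 CPM. Bub1, a checkpoint kinase, was at 43.1 to 52.0 CPM in controls against 30.5 to 43.7 CPM in Nynrin CKO libraries (edgeR adjusted p = 0.231), the lowest being the third and the fourth. Bub1b was at 43.9 to 61.5 and 50.1 to 58.1 CPM, so that its groups lay on top of each other.

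Kinetochore genes lay higher in all 7 cases, with a median of 0.62, and Nuf2 and Spc24, which belong to the same NDC80 complex, rose. The NDC80 complex binds microtubules and has the 4 subunits NDC80, NUF2, SPC24 and SPC25, all of them among the 37 genes. Nuf2 lies on chromosome 1 from 169497934 to 169531464 on the minus strand, and Spc24 on chromosome 9 from 21755442 to 21760303, also on the minus strand. Nuf2 read 36.5, 28.8, 28.0 and 29.2 CPM in controls against 42.4, 42.2, 55.6 and 48.4 CPM in Nynrin CKO libraries. Its groups did not overlap, at 30.6 ± 3.94 and 47.2 ± 6.31 CPM (SD, n = 4), with a log2 fold change of 0.62 ± 0.13 (edgeR adjusted p = 0.0476; exact permutation p = 0.0286).

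Spc24 read 32.0, 29.3, 32.7 and 32.7 CPM in controls against 41.8, 43.1, 66.4 and 63.0 CPM in Nynrin CKO libraries. The controls were within a few CPM of each other and all Nynrin CKO values were above them, at 31.7 ± 1.63 and 53.6 ± 12.9 CPM (SD, n = 4). The log2 fold change was 0.76 ± 0.17 (edgeR adjusted p = 0.0491; exact permutation p = 0.0286). Of the other subunits, Spc25 had 0.71 (edgeR adjusted p = 0.124) and Ndc80 0.44 (edgeR adjusted p = 0.146). The Ndc80 value is uncertain, since a copy record, Gm1976, that is 90.9% identical over 944 bases held 47.6% as many counts, and 2700099C18Rik held 20.1%.

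The centromere genes were more spread. Cenpe, a kinetochore motor, had 19.9 to 37.2 CPM in controls against 30.5 to 70.2 CPM in Nynrin CKO libraries, with a log2 fold change of 0.90 ± 0.31 (edgeR adjusted p = 0.15). Cenpa, the histone H3 variant of centromeres, had 31.6 to 54.6 and 37.1 to 74.7 CPM. Cenpf, a large protein of the outer kinetochore, had 23.5 to 37.1 and 23.3 to 49.0 CPM. In each of these 3 the control and Nynrin CKO ranges overlapped.

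Among spindle genes, Cep85 had the highest log2 fold change of the 37, while the motor gene Kif11 was one of the 3 genes below 0. Values were positive for 5 of the 6, with a median of 0.33, 1 call and 2 genes without overlap. Cep85, a centrosomal protein gene on chromosome 4 from 134129858 to 134187112 on the minus strand, read 81.7, 106, 91.1 and 119.6 CPM in controls against 202, 204, 253 and 256 CPM in Nynrin CKO libraries. The lowest Nynrin CKO library was well above the highest control. Its means were 99.7 ± 16.7 and 229 ± 29.8 CPM (SD, n = 4), 2.29-fold, with a log2 fold change of 1.20 ± 0.15 (edgeR adjusted p = 0.0345; exact permutation p = 0.0286).

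Nusap1, which binds and bundles spindle microtubules, read 41.5, 36.2, 37.9 and 38.8 CPM in controls against 50.9, 46.3, 54.9 and 56.6 CPM in Nynrin CKO libraries. The groups did not overlap, and the log2 fold change was 0.43 ± 0.10 (edgeR adjusted p = 0.0539). The record Oip5 shares exons with Nusap1 and held 48.8% as many counts. Kif2c, a kinesin that shortens microtubules, had a log2 fold change of 0.76 (edgeR adjusted p = 0.086). Tpx2, the activator of Aurora A, had 0.24, and Hmmr, a spindle and hyaluronan-binding protein gene, had 0.17. Kif11, the motor that pushes spindle poles apart, had -0.25, at 36.5 to 50.9 CPM in controls against 27.0 to 43.9 CPM in Nynrin CKO libraries.

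Of the 8 genes of the chromosomal passenger complex and cytokinesis, 0 passed edgeR's test, 4 were higher at an unadjusted p under 0.05, and DESeq2 called Birc5 and Kif20a. Values were positive for 7, with a median of 0.46. Birc5, encoding survivin, read 55.0, 39.5, 38.8 and 38.2 CPM in controls against 64.4, 56.8, 82.0 and 78.4 CPM in Nynrin CKO libraries. The groups did not overlap, with a log2 fold change of 0.71 ± 0.16 (edgeR adjusted p = 0.0517). Kif20a, a motor of the central spindle, read 44.1, 35.9, 37.1 and 38.6 CPM in controls against 49.3, 47.7, 59.2 and 60.2 CPM in Nynrin CKO libraries. Its groups did not overlap either, with a log2 fold change of 0.47 ± 0.12 (edgeR adjusted p = 0.0644). The overlapping record Cdc23 held 312% as many counts as Kif20a, so its value is uncertain.

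Aurkb, the kinase of the passenger complex, was the third gene of this group without overlap (edgeR adjusted p = 0.107). Incenp, the scaffold of that complex, had a log2 fold change of 0.18. The midzone genes Kif23 and Prc1 had 0.49 and 0.33, and Anln, the contractile ring protein anillin, 0.45. Ect2, which activates RhoA for the contractile ring, had -0.33: controls ran from 25.0 to 34.0 CPM, Nynrin CKO 1 and 2 were at 33.7 and 30.4 CPM, and Nynrin CKO 3 and 4 were at 14.6 and 16.2 CPM.

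The chromosome genes overlapped between groups. Mki67, encoding the proliferation marker Ki-67, read 129, 113, 100.2 and 87.6 CPM in controls against 113, 103, 160.6 and 160.2 CPM in Nynrin CKO libraries. Top2a, encoding the topoisomerase that untangles sister chromatids, read 213, 173, 193 and 146 CPM in controls against 166, 159.6, 218 and 203 CPM in Nynrin CKO libraries. In both, Nynrin CKO 1 and 2 lay within the control range. Their log2 fold changes were 0.32 ± 0.18 (edgeR adjusted p = 0.409) and 0.04 ± 0.15 (edgeR adjusted p = 0.931).

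**Figure D2:**
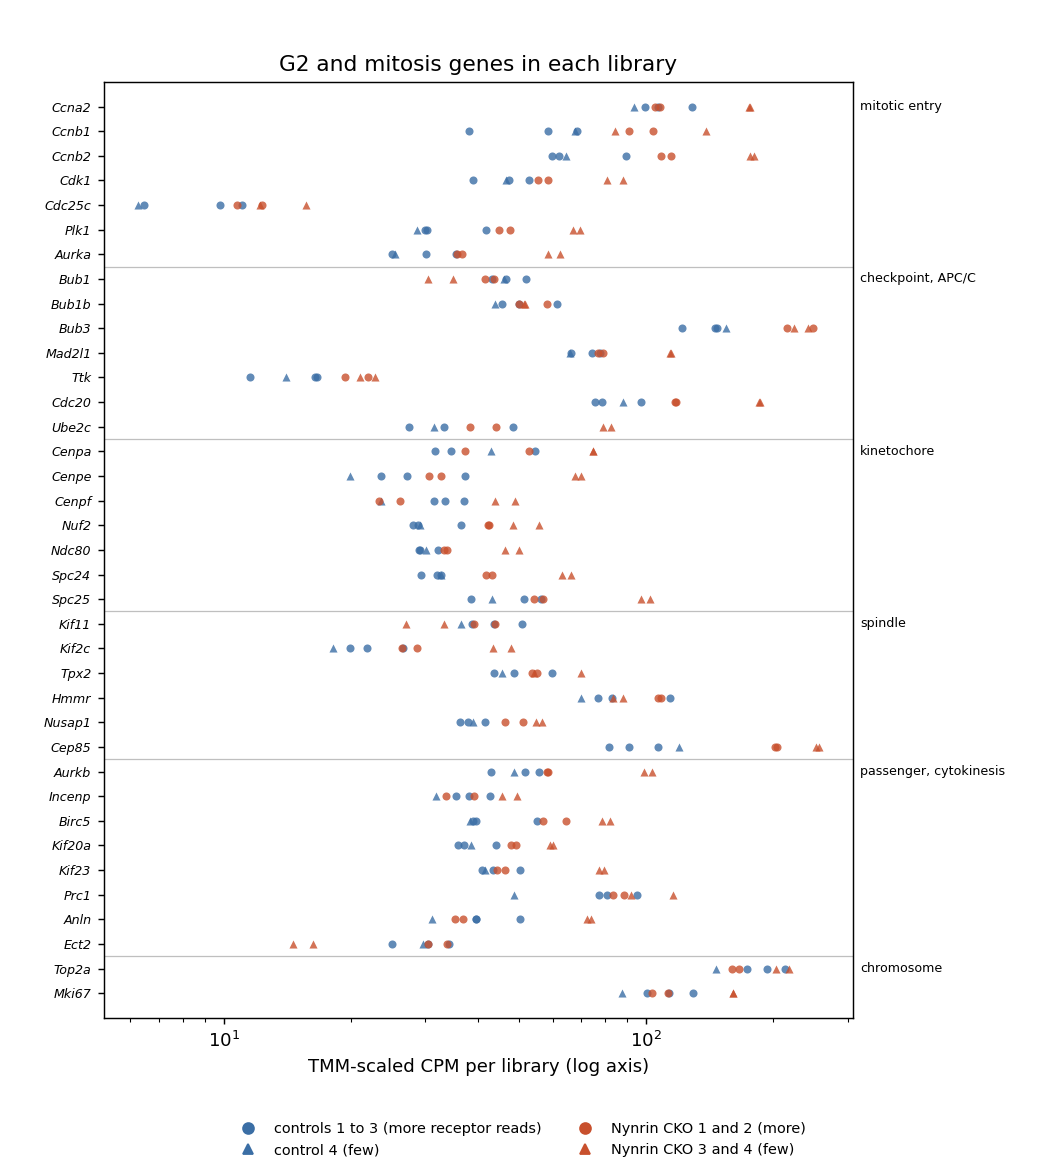
TMM-scaled CPM (log axis) of the 37 genes, ordered by role, with 1 point per library (blue controls, red Nynrin CKO, triangles for the set with few receptor reads). In Cep85 and Bub3 the Nynrin CKO libraries sit together above the controls (202 to 256 against 81.7 to 119.6 CPM for Cep85), while in Ccnb2 and Cdc20 the third and the fourth sit above the first pair.

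Per length of the longest transcript, the control levels of the 37 genes differed widely. Cdc20 was at 47.3 CPM per kilobase (range 42.1 to 54.1 over 4 controls) and Ccnb2 at 45.0 (39.0 to 58.4), and these neighbours overlapped. They were followed by Ccna2 at 36.1, Bub3 at 35.4 and Top2a at 34.7 CPM per kilobase. Cenpf at 2.82, Cdc25c at 3.19 and Cenpe at 3.41 CPM per kilobase were the lowest. Cenpf and Cenpe encode very long proteins.

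Much of the difference between groups was carried by Nynrin CKO 3 and 4. Both lay above Nynrin CKO 1 and 2 for 27 of the 37 genes (73.0%), and below them for 4, Ect2, Kif11, Bub1 and Hmmr. Over all tested genes both lay above in 26.2%, and over genes of at least 10 CPM in 44.4%. Nynrin CKO 3 and 4 lay above all 4 controls in 29 genes and below all in 3, Bub1, Kif11 and Ect2. Nynrin CKO 1 and 2 lay above all 4 controls in 16. Positions of these pairs against the controls were not counted over all tested genes. Genes of at least 10 CPM also lay higher in general. Their median log2 ratio to the mean of the controls was 0.14 in Nynrin CKO 1 and 2 each and 0.22 in 3 and 4 each, against -0.09 to 0.10 in controls. The summed level of the 37 genes was 2323, 1870.2, 2011 and 1868 CPM in controls 1 to 4, then 2520.3, 2446, 3401 and 3257 CPM in Nynrin CKO 1 to 4. Control 1 was the highest of the controls, close to Nynrin CKO 1 and 2. Without Cep85 and Bub3 the sums were 2096, 1642, 1773 and 1594 CPM in controls 1 to 4. They were then 2070, 2026, 2924 and 2760 CPM in Nynrin CKO 1 to 4, so that control 1 lay above Nynrin CKO 1 and 2.

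Fold changes were also taken within each set of libraries, from a fit that gave each group its own mean in each set. The member median was 0.19 in the set with more receptor reads (controls 1 to 3, Nynrin CKO 1 and 2), with 29 of 37 positive, and 0.87 in the set with few (control 4, Nynrin CKO 3 and 4), with 34 positive. Genes of mitotic entry had medians of 0.34 and 1.15, checkpoint genes 0.18 and 0.65, kinetochore genes 0.16 and 0.98, spindle genes 0.26 and 0.49, passenger and cytokinesis genes 0.06 and 0.98, and chromosome genes -0.17 and 0.70. The difference between the sets was tested in edgeR, a test chosen after the data had been seen. In it 13 members had a larger fold change in the set with few receptor reads, beside 4.31% of all tested genes, and 1 member, Ect2, a smaller one, beside 3.61%. Control 4 was the only control of its set and is assumed to vary like the others, and Nynrin CKO libraries were alike in pairs. Cep85, at 1.12 and 1.09, Ccnb1, at 0.82 and 0.72, and Bub3, at 0.75 and 0.59, had log2 fold changes of similar size in both sets. They were named after their values were seen. Similar values were not particular to genes with large fold changes: Hmmr had 0.24 and 0.29.

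The widest gaps between sets were those of Anln, Cenpf and Cenpe, named here after their values were seen. Anln had log2 fold changes of -0.26 in the set with more receptor reads and 1.23 in the set with few (edgeR adjusted p for the difference = 0.00749). Cenpf had -0.46 and 0.98 (0.00789), and Cenpe 0.11 and 1.79 (edgeR adjusted p = 0.0153 for the latter). The remaining genes larger in the set with few receptor reads were Ccna2, Mki67, Prc1, Kif23, Top2a, Kif2c, Mad2l1, Aurkb, Spc25 and Aurka. Ect2 ran the other way, at 0.10 and -0.94 (edgeR adjusted p = 0.0377). The 6 genes called in the whole comparison had adjusted p-values of 0.0836 to 0.976 for the difference in edgeR. Within the controls, control 4 was the lowest for 16 of the 37 genes and the highest for 2, Cep85 and Bub3. These ranks were not counted over all tested genes.

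**Figure D3:**
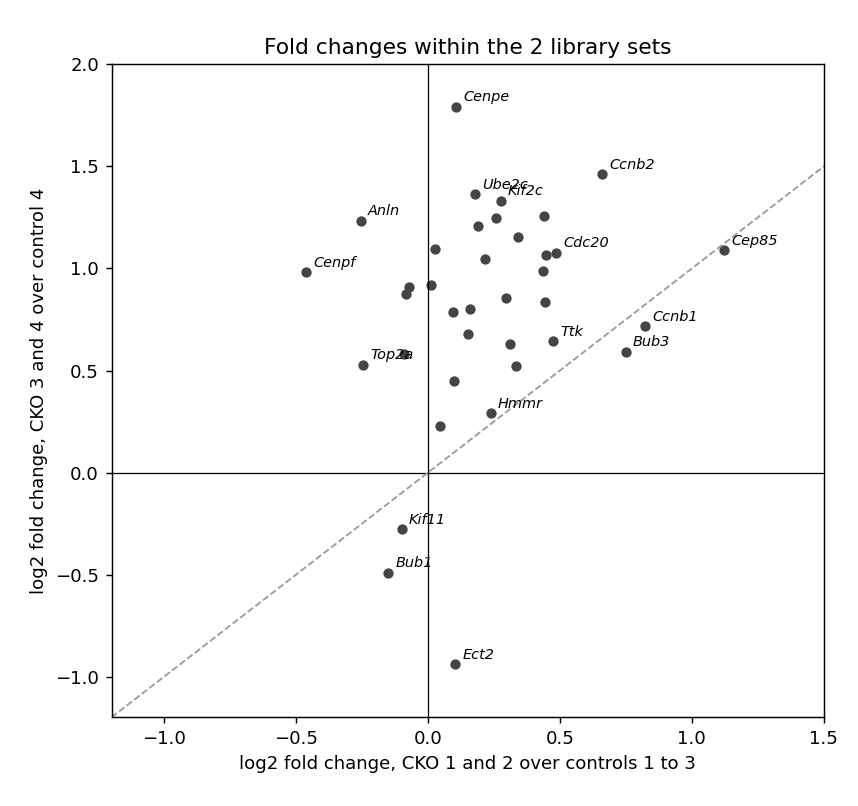
Log2 fold change of each of the 37 genes in the set with more receptor reads (controls 1 to 3 against Nynrin CKO 1 and 2, horizontal) and in the set with few (control 4 against Nynrin CKO 3 and 4, vertical); the diagonal marks equal values. Cep85, Bub3 and Ccnb1 lie near the diagonal, Anln, Cenpf and Cenpe far above it, and Ect2 below it.

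Summed markers of several other cell types were also higher in Nynrin CKO 3 and 4. The 20 markers of granulocyte and monocyte precursors, led by Mpo and Lyz2, summed to 492 to 722 CPM in controls, 895 to 933 CPM in Nynrin CKO 1 and 2 and 4904 to 4929 CPM in Nynrin CKO 3 and 4. Of this list Cebpe was at 0 in at least 1 library. The 8 markers of multipotent and lymphoid-primed progenitors summed to 1207 to 1943, 1641 to 1652 and 4068 to 4130 CPM in the same order. In that list 7 of 8 lay above all controls in Nynrin CKO 3 and 4, and in the granulocyte and monocyte list 19 of 20. Counts of this kind were not made over all tested genes. HSC markers summed to 3422 to 4322, 3994 to 3999.8 and 4475 to 4482 CPM, a sum led by Kit, at 1345 to 1627 CPM in controls and 2329.5 to 2359 CPM in Nynrin CKO 3 and 4. Most of the HSC list lay the other way: 10 of 16 were lower in Nynrin CKO 3 and 4 than in 1 and 2, and 6 were below all controls. The median log2 ratio to the mean of the controls over that list was -0.20 and -0.31 in Nynrin CKO 3 and 4, against -0.32 to 0.15 in controls. Erythroid markers were at 1140.0 to 1453, 2352 to 2522 and 2106 to 2159 CPM, the only one of these 4 sums in which Nynrin CKO 1 and 2 were above 3 and 4. Mitochondrially encoded RNA took 5.98% to 7.44% of counts in controls, 6.55% to 6.78% in Nynrin CKO 1 and 2, and 9.86% to 9.90% in Nynrin CKO 3 and 4. The part of these markers and of mitochondrial RNA in the higher G2 and mitosis genes was not tested.

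The remaining marker lists had lower summed levels. Mast cell and basophil markers summed to 8.42 to 29.6 CPM in controls against 121 to 124 CPM in Nynrin CKO 3 and 4, macrophage markers to 65.5 to 92.2 and 207 to 214 CPM, endothelial markers to 54.7 to 84.6 and 194 to 199 CPM, and T and NK cell markers to 51.9 to 81.7 and 265 to 272 CPM. Only 2 of the 8 T and NK cell markers lay above all controls in Nynrin CKO 3 and 4, where the median log2 ratio of that list was -0.01 and 0.21. The same count was 4 of 6 for mast cell and basophil markers, 7 of 7 for macrophage and 4 of 7 for endothelial markers. B cell markers were at 44.4 to 57.0 CPM in controls against 108 to 198 CPM in Nynrin CKO libraries. Megakaryocyte markers did not follow this order, at 119 to 358 CPM in controls, 279 to 306 CPM in Nynrin CKO 1 and 2 and 122 CPM in both Nynrin CKO 3 and 4.

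Other genes of mitosis had a smaller median difference. Of 113 such genes outside the 37, 12 rose and 0 fell in edgeR (4 fell in DESeq2, and 5 were lower at an unadjusted p under 0.05). That is 10.6% called higher, beside 5.82% of genes of at least 10 CPM, with 93 positive and a median log2 fold change of 0.35. Anapc10, a subunit of the anaphase-promoting complex, was at 22.5 ± 2.90 CPM in controls against 36.1 ± 1.52 CPM in Nynrin CKO libraries (SD, n = 4; log2 fold change 0.68, edgeR adjusted p = 0.0386). Lin37, a subunit of the DREAM complex that binds CHR elements, had 0.61 (edgeR adjusted p = 0.0394). Cenpq, a centromere protein gene, had 0.70, and Cdca8, the passenger complex subunit borealin, had 0.97, at 51.4 ± 6.85 and 101 ± 25.4 CPM (SD, n = 4; edgeR adjusted p = 0.0408 for each). Its partners in the complex, Aurkb, Birc5 and Incenp, did not pass. The median within the sets was 0.20 with more and 0.46 with few receptor reads.

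S phase genes were close to those. Of 43, 4 rose and 0 fell in edgeR (also 0 at an unadjusted p under 0.05, and 0 in DESeq2), with 37 positive and a median of 0.32. That is 9.3% called higher, beside 5.82% of genes of at least 10 CPM. Of those genes 67.1% were positive, with a median of 0.19. The 4 were Ccne1, the G1/S cyclin E1 (log2 fold change 0.70), Rrm2, the ribonucleotide reductase subunit that supplies deoxynucleotides (0.76), Rfc2, a clamp loader subunit (0.67), and Gins3, of the replicative helicase (0.48). Rrm2 stood at 63.0 ± 9.07 CPM in controls against 107 ± 17.6 CPM in Nynrin CKO libraries (SD, n = 4). The list medians within the sets were 0.15 and 0.39. Beside them the 37 G2 and mitosis genes had 0.19 and 0.87, a description with no test between lists.

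Per library, the median log2 ratio of the 37 genes to the mean of the controls was 0.25, -0.11, 0.00 and -0.10 in controls 1 to 4 and 0.27, 0.26, 0.80 and 0.68 in Nynrin CKO 1 to 4. For S phase genes it was -0.11, -0.09, 0.15 and 0.12, then 0.18, 0.08, 0.54 and 0.49. The orders of the controls differed between the lists: control 1 was the highest for G2 and mitosis genes and the lowest for S phase genes.

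**Figure D4:**
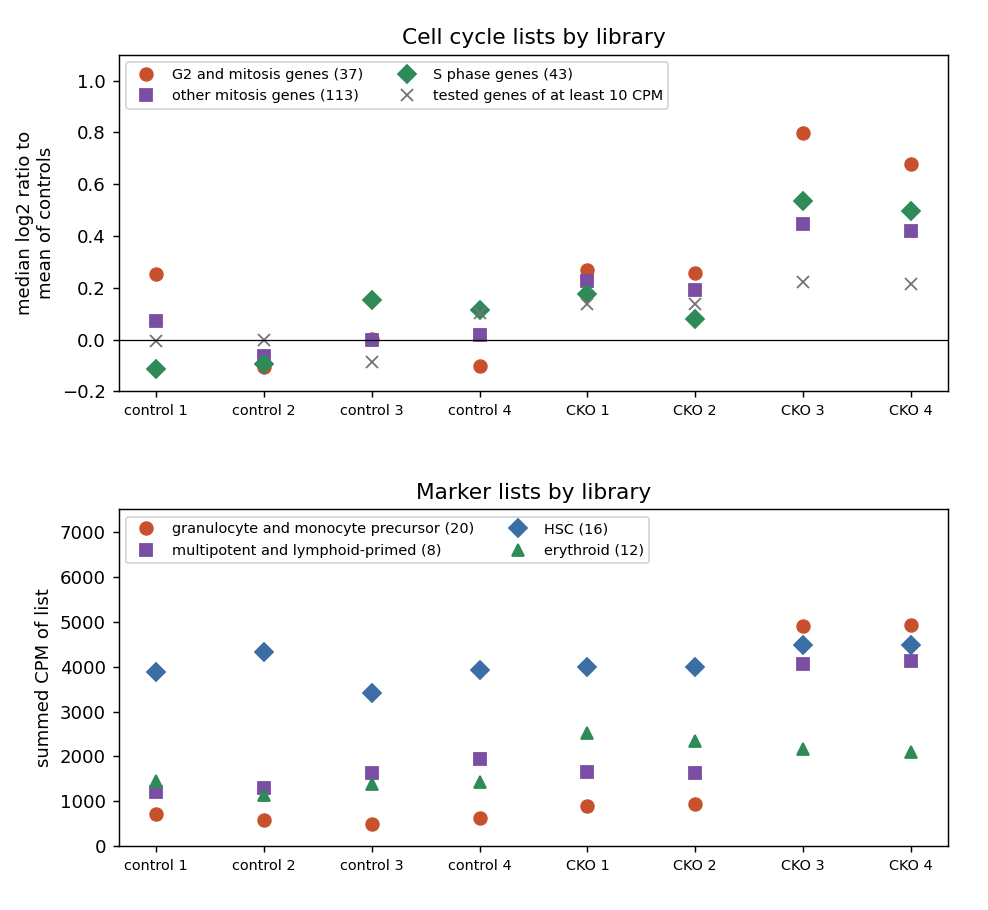
Upper panel, median log2 ratio to the mean of the 4 controls for the 37 G2 and mitosis genes, other mitosis genes, S phase genes and tested genes of at least 10 CPM in each library; lower panel, summed CPM of 4 marker lists in each library. Nynrin CKO 3 and 4 are highest for the cell cycle lists (0.80 and 0.68 for the 37 genes) and for the granulocyte and monocyte list (4904 and 4929 CPM).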

How the data were processed

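Per the file headers, the authors deposited raw read counts for each gene, with 1 column per library and no normalization. Coordinates are of mm10, per the submitters' processing notes. Aligner, counter, strand setting and sort markers were not given in the sources used here. Members and lists were chosen with earlier results of these data known. The test was edgeR 4.0.16 (R 4.3.3). There filterByExpr kept 27573 genes, libraries were scaled by TMM, and a robust quasi-likelihood F-test with Benjamini-Hochberg adjustment over all tested genes used a threshold of 0.05. CPM carry the TMM factors. Exact permutation tests were two-sided on log2(CPM + 1) over 70 assignments. They give 0.0286 for every gene whose groups do not overlap, so that value only repeats the lack of overlap. Library sets were split at 300 CPM of receptor reads and Xist classes at 100 CPM. Library values were printed for members that passed and for the 2 with the smallest p per role. In the other mitosis and S phase lists, up to 4 that passed were named. A result on the marker lists is not reported here. Gene coordinates are those of the deposited table, and transcript lengths came from GENCODE. Alternatives were other scalings and filters, DESeq2 1.42.0, limma-voom (limma 3.58.1), a replicate term, fits with terms for, or subsets by, library set and Xist class, summed Nynrin CKO pairs, a length trend and removal of each library. A newer quasi-likelihood form, the 6 libraries with low Xist and the test between sets were chosen after seeing the data.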

Additional observations from a re-analysis of the deposited data

Results flagged for a closer look

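Of 80 groups of 4 libraries looked at, 5 had 1 library far from the other 3 by Dixon's criterion, and chance flags about 1 in 20 groups. Control 1 was the highest control for Ccnb2 at 89.5 CPM (the others at 59.7 to 64.5), for Plk1 at 41.8 CPM (28.6 to 30.2), for Nuf2 at 36.5 CPM (28.0 to 29.2) and for Birc5 at 55.0 CPM (38.2 to 39.5). Nynrin CKO 3 was the highest of its group for Tpx2 at 70.2 CPM (53.6 to 55.1).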

How the results depend on the processing

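Of the 37 members, 6 were called higher in the reported fit, beside 12 other mitosis genes and 4 S phase genes. Members, other mitosis genes and S phase genes called higher numbered 1, 0 and 0 with RLE factors, with total counts, with no filter on low counts and with a length trend removed, and 2, 2 and 0 with upper-quartile factors. They numbered 12, 19 and 10 with DESeq2, 3 and 7 (members and other mitosis genes) without robust estimation, and 2 members in the set with more receptor reads alone. A term for Xist class, summing of the similar Nynrin CKO libraries, or use of the 6 low-Xist libraries alone each gave 0 for all 3 counts. S phase calls were 10 with library set as a term and 8 with the newer quasi-likelihood form. Over all tested genes, calls higher were 1221 and 822 in these fits and 430 without robust estimation. They were 33 with no filter on low counts and 18 with a length trend removed. In the set with more receptor reads alone, they were 1311 of 32419. Leaving out 1 library gave 0 to 2 members, 0 to 11 other mitosis genes and 0 to 9 S phase genes. Other mitosis genes called lower went from 0 to 1 with upper-quartile factors, total counts, limma-voom, the newer form and the set with more receptor reads, to 2 when genes needed a mean of 1 CPM and with library set as a term, and to 4 with DESeq2, and S phase genes called lower went to 5 in the set with more receptor reads. Medians of members, other mitosis and S phase genes moved to 0.24, 0.064 and 0.038 with total counts, and those of members and other mitosis genes to 0.18 and 0.19 in the set with more receptor reads. The cause of these moves was not tested.

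With the replicate number as a block, all 3 counts were 0, as was the count over all tested genes. The deviations of same-numbered libraries correlated at 0.20, 0.21, -0.26 and 0.39. Libraries of different number were not compared, so these values cannot say whether the numbers pair the libraries.

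Some members changed sign, most often Top2a and Bub1b, which were the nearest to 0. Top2a became -0.00405 with RLE factors and with DESeq2, -0.069 with upper-quartile factors, -0.25 with total counts, -0.060 at a minimum mean of 1 CPM, -0.26 in the set with more receptor reads, -0.049 with the Xist term, -0.00678 with summed pairs and -0.011 with low Xist only, and it ran from -0.037 to 0.13 when 1 library was left out. Bub1b became -0.038 with upper-quartile factors, -0.20 with total counts, -0.026 at 1 CPM and -0.025 with the Xist term, and ran from -0.0013 to 0.19 when 1 library was left out. With total counts, Cenpf (-0.15), Tpx2 (-0.042), Hmmr (-0.078) and Incenp (-0.11) turned, and Hmmr was -0.024 with the Xist term. Cenpf ran from -0.0011 to 0.35 when 1 library was left out. In the set with more receptor reads, Ccna2 (-0.080), Cenpf (-0.47), Incenp (-0.10), Anln (-0.26) and Mki67 (-0.091) were below 0 and Ect2 was at 0.095. Not all of these were near 0 in the reported fit, where Anln had 0.45, Ccna2 0.40, Mki67 0.32 and Ect2 -0.33.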
